A study of Mus musculus with 2 samples.

Results

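The nuclear-encoded subunits of the mitochondrial respiratory chain were examined in single cells sorted from mouse femurs. The members were all gene symbols that begin with Ndufa, Ndufb, Ndufc, Ndufs, Ndufv, Uqcr, Sdh, Cox4, Cox5, Cox6, Cox7, Cox8 or Atp5, without pseudogenes ending in -ps and without the Ndufaf assembly factors. This rule took 89 of the 28006 features in the files, and by symbol 38 belonged to complex I, 8 to complex II, 8 to complex III, 18 to complex IV and 17 to complex V. The rule read symbols and not functions. It therefore took in the complex II assembly factors Sdhaf1, Sdhaf2, Sdhaf3 and Sdhaf4. Atp5s and Atp5sl counted under complex V by symbol alone, and GENCODE M21 lists Atp5sl as Dmac2. The rule left out cytochrome c1 (Cyc1), cytochrome c (Cycs), Usmg5 and the ATP synthase inhibitor Atpif1. Ndufa4 counted under complex I by its symbol, although its protein is now placed in complex IV. All 89 members had a position in GENCODE M21, spread over 19 chromosomes.

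The cells came from 2 mice that formed 1 group, with 1 library each. Both mice carried a GFP allele at Cxcl12 (Cxcl12(GFP/+)), a Cxcl12-iCreER bacterial artificial chromosome transgene and the R26R(tdTomato/+) reporter. They received tamoxifen at postnatal day 21 and were analysed at postnatal day 28. In these mice eGFP follows the Cxcl12 locus, 1 copy of which is replaced, and tdTomato marks cells in which iCreER was active, as well as their progeny. The sort is labelled GFP+ in the sample and design fields and tdTomato+ in 1 protocol field, and it was taken as GFP+. No groups of animals could be compared, so classes of cells were compared inside both animals.

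The respiratory chain carries electrons from NADH at complex I and from succinate at complex II, through complex III and cytochrome c, to oxygen at complex IV, and complex V makes ATP from the proton gradient this builds. Its proteins come from both genomes: mitochondrial DNA encodes 13 of them, read here as the mt- genes, whereas all subunits of complex II and most subunits of the other complexes come from nuclear genes. Several complex IV subunits exist as paralogs with a known tissue preference, such as Cox4i2 in lung and under low oxygen, Cox6a2, Cox7a1 and Cox8b in heart and skeletal muscle, and Cox6b2, Cox7b2 and Cox8c in testis. The transcription factors NRF1 and the ETS family member GABP are known regulators of nuclear respiratory genes.

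Promoter sequences of 300 bases (250 before the start and 50 after it) were available from RefSeq for 74 of the 89 members, with coordinates of GRCm38.p6, the assembly of mm10. The motifs searched on both strands were NRF1 (GCGCANGCGC), ETS (CCGGAAG), YY1 (AAGATGG) and the hypoxia response core (ACGTG). The NRF1 letters stood in 19 of 74 member promoters (25.7%), against 5.19% of 27025 promoters and 11.2% of the 9990 promoters whose genes were tested below. The ETS letters stood in 25.7% of member promoters, against 9.93% and 19.2% in the same 2 backgrounds, and the YY1 letters in 16.2%, against 7.28% and 8.15%. The hypoxia response core stood in 27%, against 21.8% and 28.7%. At least 1 of the NRF1 and ETS motifs stood in 44.6% of member promoters, against 14% and 27.8%. Median GC content was 58.3% for members, 52.8% for all promoters and 60.7% for those of tested genes. The ETS letters stood in 12.1% of the 33 complex I promoters and in 36.6% of the 41 other member promoters. The windows below belong to members that the class comparisons name, and they are shown as examples of the letters counted. Each is a run of 30 bases read 5′ to 3′ along the gene, with the motif in capitals. A match is a description of these letters and not evidence of a bound site.
Ndufa8, NRF1, chr2:36049349-36049378, minus strand: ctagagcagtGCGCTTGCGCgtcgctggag
Cox6a1, NRF1, chr5:115349101-115349130, minus strand: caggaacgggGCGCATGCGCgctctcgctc
Atp5g2, NRF1, chr15:102671070-102671099, minus strand: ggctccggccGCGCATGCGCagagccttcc
Sdhd, NRF1, chr9:50603909-50603938, minus strand: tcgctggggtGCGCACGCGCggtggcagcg
Sdhd, ETS, chr9:50603877-50603906, minus strand: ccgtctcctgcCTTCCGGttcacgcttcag
Cox6b1, ETS, chr7:30626124-30626153, minus strand: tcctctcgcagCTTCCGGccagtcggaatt
Ndufb7, ETS, chr8:83566727-83566756, plus strand: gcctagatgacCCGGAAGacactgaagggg
Sdhaf2, ETS, chr19:10525349-10525378, minus strand: cccccgccctcCTTCCGGccccgccggccc
Cox5a, hypoxia response core, chr9:57521108-57521137, plus strand: ggcgcggcgccgACGTGgtttgtcctccac

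The libraries held 54940400 and 88790688 unique molecular identifiers (UMIs, each standing for 1 captured transcript). Keeping barcodes that had 1000 genes or more and no more than 15% mt- UMIs left 2750 cells in Mouse #1 and 4582 in Mouse #2, with medians of 12966.5 and 12190 UMIs. The 2 libraries shared 7 cell barcodes, where 1.85 would be shared for lists of this size. Cells were clustered without the members and the mt- genes, and clusters were named from marker genes as reticular-like (1241 cells in Mouse #1 and 2415 in Mouse #2), preosteoblast-like (393 and 761), periosteal-like (74 and 236), endothelial-like (150 and 137), myeloid-like (375 and 339), lymphoid-like (234 and 237) and erythroid-like (114 and 135). The 3 hematopoietic classes came through a sort for GFP+ stromal cells. The reticular-like class raised 8 of its 8 markers, Adipoq and Lpl among them, in each of its clusters. Clusters holding 169 and 322 cells stayed unnamed. The mouse was the replicate in every test, so p-values rest on 2 mice and measure the spread between them. Fewer cells of a subtype and less RNA per cell cannot be told apart in such sums.

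The members together took the largest share of UMIs in lymphoid-like cells and the smallest in periosteal-like cells, while the mt- genes took their largest share in preosteoblast-like cells. In reticular-like cells members made up 1.65% of UMIs in Mouse #1 and 1.73% in Mouse #2. Preosteoblast-like cells had 1.87% and 1.85%, periosteal-like cells 1.54% and 1.63%, and endothelial-like cells 1.69% and 1.76%. The 4 stromal and endothelial classes thus lay within a narrow range, in which endothelial-like and reticular-like values overlapped between mice. Lymphoid-like cells had 2.51% and 2.65%, above every other class in both mice. Myeloid-like cells had 2.14% and 1.86%, so their mice differed by more than the stromal classes did. Erythroid-like cells had 1.91% and 2.10%, although hemoglobin took 35.4% and 31.0% of their UMIs. Their distance from reticular-like cells depended on which cells were kept, as given below. Without hemoglobin and mt- UMIs in the total, erythroid-like cells had the highest member share, at 3.04% and 3.14%, against 1.72% and 1.80% in reticular-like cells.

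The mt- genes followed another order. Their share of UMIs was 3.76% and 3.93% for reticular-like, 5.24% and 6.18% for preosteoblast-like and 4.36% and 4.79% for periosteal-like cells. They took only 2.42% and 1.79% in myeloid-like cells and 1.72% and 2.09% in erythroid-like cells, whereas lymphoid-like cells had 3.21% and 3.52% and endothelial-like cells 3.50% and 3.70%. The number of member UMIs per mt- UMI put the class sums into 3 ranges, which single clusters did not all keep. It was 0.357 and 0.300 in preosteoblast-like and 0.354 and 0.341 in periosteal-like cells. It was 0.439 and 0.440 in reticular-like and 0.483 and 0.477 in endothelial-like cells, whereas the hematopoietic classes ran from 0.753 in lymphoid-like cells of Mouse #2 to 1.11 in erythroid-like cells of Mouse #1. Against reticular-like cells of the same mouse, the log2 ratio of members to mt- genes differed by -0.43 ± 0.18 (SD, n = 2) in preosteoblast-like, -0.34 ± 0.04 in periosteal-like and 0.13 ± 0.01 in endothelial-like cells. It differed by 1.13 ± 0.16 in myeloid-like, 0.80 ± 0.04 in lymphoid-like and 1.26 ± 0.11 in erythroid-like cells, with the same sign in both mice for all 6 classes. With 2 mice a permutation test cannot reach the 0.05 threshold, so these sums carry no test. Barcodes of 1 to 100 UMIs, which hold free RNA, had 0.237 and 0.231 member UMIs per mt- UMI and 6.41% and 5.99% mt- UMIs. The part of free RNA in the class values was not tested.

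**Figure D1:**
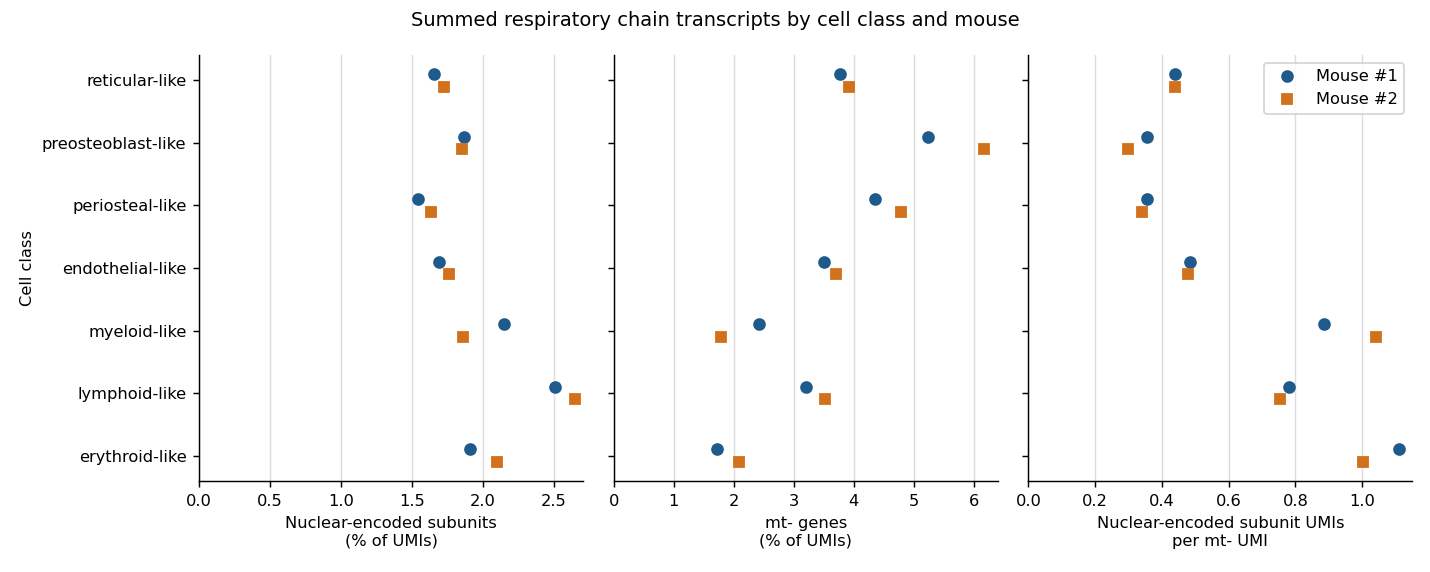
Shares of UMIs taken by the 89 members (left, percent), by the 13 mt- genes (middle, percent) and member UMIs per mt- UMI (right) in 7 cell classes, with 1 circle for Mouse #1 and 1 square for Mouse #2. The hematopoietic classes lie at 0.753 or more in the right panel, and the preosteoblast-like and periosteal-like classes at 0.357 or less.

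Sums over a class hid differences among its clusters. The myeloid-like class combined a cluster led by neutrophil genes such as Retnlg and Cxcr2, a cluster led by C1qa and Ccr2, and a progenitor cluster led by Elane and Mpo. Members took 0.895% and 0.911% of UMIs in the neutrophil gene cluster, the lowest of all named clusters, against 2.80% and 2.64% in the C1qa cluster and 2.15% and 2.02% in the progenitor cluster. The mt- genes were low in the neutrophil gene cluster as well, at 0.947% and 1.12%. Among lymphoid-like cells, the cluster led by Vpreb1 and Dntt had 2.87% and 3.06% member UMIs and 2.48% and 2.67% mt- UMIs. The cluster led by Ms4a1 had 2.13% and 2.13% member UMIs and 3.97% and 4.62% mt- UMIs. Member UMIs per mt- UMI were 1.16 and 1.14 in the Vpreb1 cluster. They were 0.537 and 0.46 in the Ms4a1 cluster, which held 185 and 188 cells. Among endothelial-like cells, this ratio was 0.516 and 0.530 in the cluster led by Gja4 and 0.396 and 0.335 in that led by Stab2.

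Each member was then tested across classes with edgeR on UMI sums per mouse and class, and a call is an edgeR adjusted p under 0.05 over 13320 genes. Of the 89 members 86 passed the filter on low counts, and the 3 below it were Cox7b2, Cox8b and Cox8c, the first with 1 UMI and the others with none in the 14 sums. All comparisons share the same reticular-like sums. Fold changes below carry TMM scaling between sums, and the median of all genes under it was 0, -0.09, -0.11, -0.03, -0.14 and -0.37 (log2) in preosteoblast-like, periosteal-like, endothelial-like, myeloid-like, lymphoid-like and erythroid-like cells.

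Preosteoblast-like cells had 1 called nuclear member against reticular-like cells, while 2 mt- genes rose. None of the 86 members rose and 1 fell, where 20.7% of all genes were called, 9.80% higher and 10.9% lower. That member was Cox6b2, with 17.9 and 18.6 CPM (UMIs scaled to a total of 1000000 per sum) in reticular-like cells and 7.31 and 8.95 in preosteoblast-like cells, lower in both mice (log2 fold change -1.22, SE 0.19, edgeR adjusted p 0.00079). The median log2 fold change was 0.03 for members and 0 for all genes. DESeq2 gave more calls in this comparison, with 10 members higher and 1 lower. All 13 mt- genes had positive log2 fold changes, between 0.27 for mt-Nd5 and 0.56 for mt-Cytb, and 2 of the 13 rose. This count depended on the scaling and the tool, with 5 higher with library totals, 8 with DESeq2 size factors and 9 with DESeq2. The 2 were mt-Cytb, a catalytic subunit of complex III (0.56, SE 0.15, edgeR adjusted p 0.021), and mt-Nd4 of complex I (0.50, SE 0.15, edgeR adjusted p 0.036). mt-Cytb stood at 6073 and 6313 CPM in reticular-like cells and at 9052 and 10301 CPM in preosteoblast-like cells.

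Periosteal-like cells changed in 5 members, of which 2 rose and 3 fell, where 18.6% of all genes were called, 9.02% higher and 9.62% lower. The higher members were Ndufa4l2, a hypoxia-inducible paralog of Ndufa4, and Cox6b2. Ndufa4l2 stood at 40.6 and 23.6 CPM against 3.92 and 3.28 CPM in reticular-like cells, with no overlap between the groups (3.09, SE 0.55, edgeR adjusted p 0.0019). Cox6b2 stood at 58.7 and 54.3 CPM (1.60, SE 0.19, edgeR adjusted p 9.7e-05). The lower members were Cox4i2 (-2.04, SE 0.32, edgeR adjusted p 0.00087), Ndufa4 (-0.63, SE 0.13, edgeR adjusted p 0.006) and Ndufb2, an accessory subunit of complex I (-0.49, SE 0.14, edgeR adjusted p 0.024). Ndufa4l2 and Ndufa4 thus differed in opposite directions, and Ndufa4l2 made up 10.8% and 6.81% of the UMIs of the pair in periosteal-like cells against 0.787% and 0.642% in reticular-like cells. Of the hypoxia target list, which does not hold Ndufa4l2, none of the 8 tested rose and 3 fell, namely Vegfa (-2.56), Bnip3 (-1.48) and Slc2a1 (-1.41). Lower calls on this list were not particular to periosteal-like cells. Preosteoblast-like cells had none higher and 3 lower, endothelial-like cells 4 and 2, and myeloid-like cells 4 and 3. Lymphoid-like cells had 2 and 3, and erythroid-like cells 2 and 5. A link of Ndufa4l2 to low oxygen was not tested. The median log2 fold change over all 86 members in periosteal-like cells was -0.06 with TMM and 0.10 with DESeq2 size factors. Its sign thus depended on the scaling, and the median of all genes moved from -0.09 to 0.05.

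Endothelial-like cells had 6 members higher and 23 lower, where 43.5% of all genes were called, 20.5% higher and 23.0% lower. This split depended on the scaling: DESeq2 size factors in the same fit gave 18 higher and 12 lower, and library totals, tried after seeing the data, gave 11 higher and 12 lower. Without reticular-like cells of Mouse #2 15 members were called, and without endothelial-like cells of Mouse #1 or of Mouse #2 18 were. The share of all UMIs taken by members was nearly that of reticular-like cells, as given above. The highest 5 were Cox5a (0.89), Cox7a2l (0.81), Ndufa8 (0.59), Uqcrfs1 (0.54) and Atp5g2 (0.41), and the lowest 5 were Cox4i2 (-3.67), Cox6b2 (-3.43), Atp5s (-1.55), Ndufb2 (-0.90) and Ndufs4 (-0.80). Cox7a2l, a factor that joins complexes III and IV into supercomplexes, stood at 287 and 311 CPM against 157 and 155 CPM in reticular-like cells (SE 0.13, edgeR adjusted p 0.0003). Cox6b2 stood at 0.524 and 3.14 CPM (SE 0.37, edgeR adjusted p 7.8e-06). Ndufs4, an accessory complex I subunit, stood at 73.4 and 88.0 CPM against 127 and 131 CPM (SE 0.15, edgeR adjusted p 0.00061). The lower calls took in 13 of 38 complex I, 5 of 15 complex IV and 5 of 17 complex V members. In these complexes 1, 2 and 2 members were higher. Of the 8 complex III members 1, the Rieske iron-sulfur protein Uqcrfs1, was higher and none was lower. Complex I made up 31.3% and 30.7% of member UMIs against 35.0% and 35.2% in reticular-like cells. Complex III made up 11.7% and 11.5% against 9.70% and 9.73%. Both shares lie within the member sum and do not depend on the scaling. The call of Uqcrfs1 was lost without endothelial-like cells of Mouse #2 (0.40, edgeR adjusted p 0.16) and without reticular-like cells of either mouse (edgeR adjusted p 0.11 and 0.052). Those of Atp5g2 and Atp5s were lost without endothelial-like cells of Mouse #2 as well (0.30 and -0.75, edgeR adjusted p 0.27 and 0.3).

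Myeloid-like cells had 62 members higher and 1 lower, where 32.7% of all genes were higher, 34.0% were lower and 66.7% were called in all. The median log2 fold change was 0.54 over members and -0.03 over all genes. The number of calls depended on the scaling: with library totals 29 members were higher and 6 lower, and the median of all genes was -0.40. Of the 61 members called higher that had UMIs in all 4 sums, 45 had a higher share of all UMIs in both mice and 16 in 1 mouse. Complex III was called throughout, with 8 of 8 members higher, followed by 15 of 17 in complex V, 12 of 15 in complex IV, 25 of 38 in complex I and 2 of 8 in complex II. The lower call was Cox4i2. After the rare isoform Cox6a2, the highest members were Cox5a (1.80, SE 0.14, edgeR adjusted p 2.6e-07), Ndufb7 (1.37), Sdhd (1.24) and Atp5g1 (1.20). Cox5a, a subunit of complex IV, stood at 451 and 394 CPM against 151 and 163 CPM in reticular-like cells, without overlap. Without the neutrophil gene cluster, a choice made after seeing the data, 70 members were higher and 1 was lower. The mt- genes differed the other way, with none higher and 9 of 13 lower and a median of -0.53. mt-Cytb (-1.01, SE 0.15, edgeR adjusted p 7.7e-05) stood at 2606 and 2144 CPM.

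Lymphoid-like cells had 53 members higher and 2 lower, where 29.9% of all genes were higher, 35.0% were lower and 64.9% were called in all. Members had a median of 0.50 and all genes one of -0.14. Besides Cox6a2, the highest were Atp5sl (2.44, SE 0.22, edgeR adjusted p 9.1e-07), Sdhaf2 (1.55), Cox7a1 (1.55) and Cox5a (1.49). Atp5sl stood at 32.2 and 41.6 CPM against 5.88 and 6.57 CPM in reticular-like cells, and Sdhaf2, which attaches the flavin cofactor to Sdha, at 89.8 and 75.4 CPM against 25.8 and 25.9 CPM. The heart and muscle isoform Cox7a1 stood at 4.32 and 9.19 CPM against 1.84 and 2.36 CPM, and its call was lost without lymphoid-like cells of Mouse #2 (0.97, edgeR adjusted p 0.24) and without reticular-like cells of Mouse #1 (1.38, edgeR adjusted p 0.082). The lower members were Cox4i2 (-3.38) and Ndufb2 (-0.60), the latter at 156 and 171 CPM against 221 and 234 CPM. Of the mt- genes none was higher and 5 of 13 were lower.

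Erythroid-like cells had 71 members higher and 4 lower, where 29.5% of all genes were higher, 40.7% were lower and 70.2% were called in all. The median was 0.91 over members and -0.37 over all genes. Library totals count hemoglobin, and with them the median of all genes was -1.06 and the calls were 38 higher and 16 lower. Of the 71 members called higher, 47 also had a higher share of all UMIs in both mice, 9 in 1 mouse, and 15 had a lower share in both. Cox6b2 changed most, at 113 and 118 CPM against 17.9 and 18.6 CPM in reticular-like cells (3.37, SE 0.18, edgeR adjusted p 9.2e-09). Uqcrfs1 (1.77), Cox5b (1.77), Atp5g1 (1.71) and Atp5f1 (1.69) followed, and each was also higher as a share of all UMIs in both mice. Cox5b, for example, stood at 521 and 566 CPM against 253 and 268 CPM. The lower members were Ndufa4l2, Cox4i2 (-3.04), Cox7a1 and Ndufs4 (-0.36, SE 0.14, edgeR adjusted p 0.037). Ndufs4 stood at 61.8 and 60.6 CPM against 127 and 131 CPM, and its call was lost without erythroid-like cells of Mouse #2 (-0.24, edgeR adjusted p 0.24), without reticular-like cells of Mouse #1 (edgeR adjusted p 0.073) or Mouse #2 (edgeR adjusted p 0.14) and with DESeq2 size factors (-0.10). Ndufa4l2 rested on 2 UMIs against 163, a ratio of 0.072 (exact 95% interval 0.00865 to 0.264, counting error only). Cox7a1 rested on 2 against 101, a ratio of 0.116 (0.0139 to 0.431). Their calls were lost without erythroid-like cells of Mouse #2 (edgeR adjusted p 0.3 and 0.21), and the number of lower calls ran from 1 to 3 when 1 library was left out. Of the mt- genes none was higher and 7 of 13 were lower, against 13 lower with library totals and 1 higher and 6 lower with DESeq2 size factors.

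**Figure D2:**
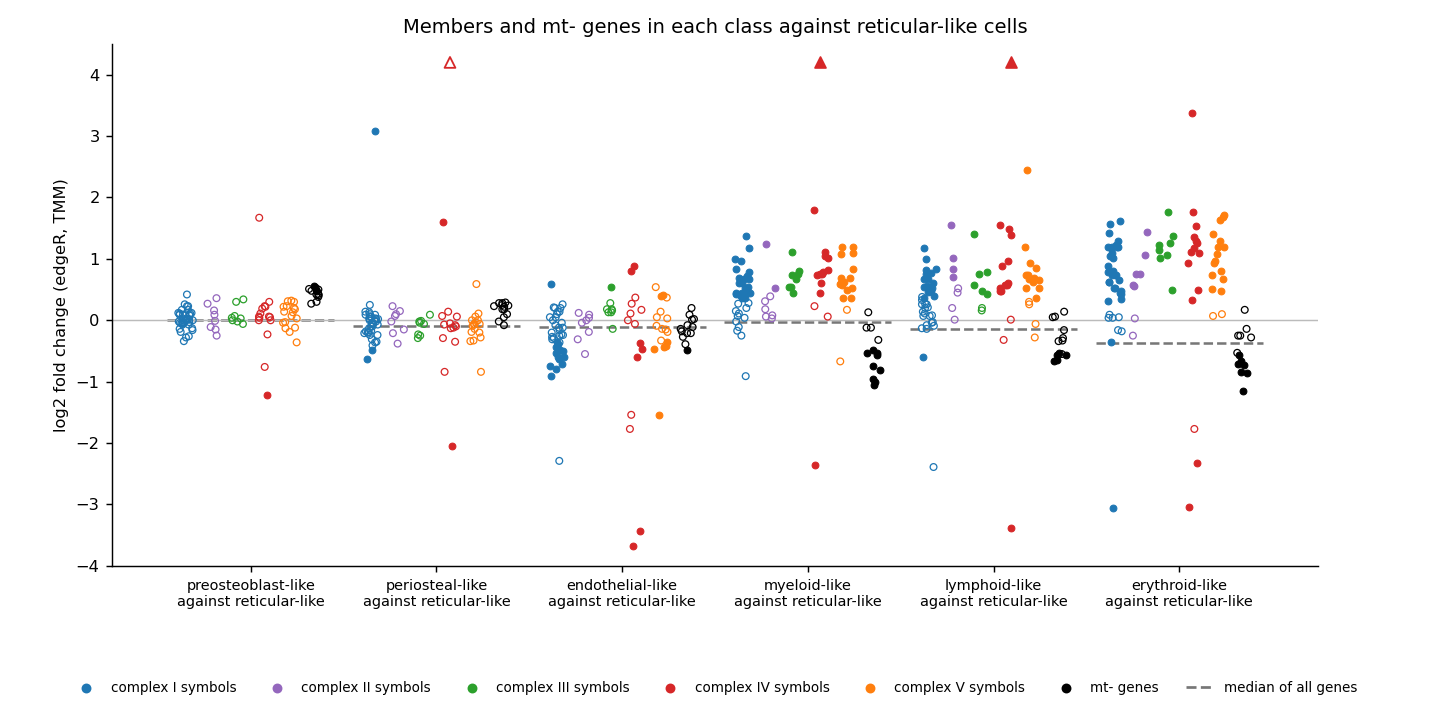
Log2 fold changes (edgeR, TMM) against reticular-like cells for the 86 tested members by complex and for the 13 mt- genes in 6 classes. Filled points passed an adjusted p of 0.05, open points did not, triangles mark Cox6a2 values above the axis, and the dashed line is the median of all genes. In the 3 hematopoietic classes most members lie above that line, while 9, 5 and 7 mt- genes are called lower.

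The paralogous subunits of complex IV are given next, each with its common counterpart. Cox4i2, a paralog of the core-associated subunit Cox4i1, stood at 17.5 and 19.6 CPM in reticular-like cells and at 22.3 and 20.4 CPM in preosteoblast-like cells. It lay between 1.05 and 5.97 CPM in every other named class, so the reticular-like and preosteoblast-like values did not overlap with those. Unnamed clusters are not part of this statement, and 1 of them with Cox4i2 UMIs is given below. Cox4i2 made up 3.19% and 3.67% of the UMIs of the pair in reticular-like cells (95% Wilson intervals 2.85 to 3.58% and 3.39 to 3.97%, counting error only). In periosteal-like cells it made up 0.261% and 1.00%. Cox4i1 itself was called higher in the 3 hematopoietic classes, with 0.82, 0.58 and 1.26 in myeloid-like, lymphoid-like and erythroid-like cells. After thinning each cell to 2000 UMIs, a Cox4i2 UMI was found in 3.79% and 4.36% of reticular-like cells (17.2% and 18.4% unthinned). It was found in 0.267% and 0.59% of myeloid-like cells and in none of the 234 and 235 lymphoid-like cells that remained.

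Cox6b2 differed between most classes. Its order ran from endothelial-like (0.524 and 3.14 CPM) through preosteoblast-like (7.31 and 8.95), lymphoid-like (15.8 and 16.0), reticular-like (17.9 and 18.6), myeloid-like (30.7 and 27.3) and periosteal-like (58.7 and 54.3) to erythroid-like cells (113 and 118). Neighbours in this order did not overlap between mice, although lymphoid-like and reticular-like cells lay close and did not pass the test (-0.32, SE 0.22, edgeR adjusted p 0.23). Cox6b2 made up 21.3% and 20.4% of the UMIs of Cox6b1 and Cox6b2 in erythroid-like cells and 5.05% and 5.24% in reticular-like cells. Cox6b1 was called higher in the hematopoietic classes, at 0.79, 0.61 and 1.09.

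Cox6a2 was nearly absent from stromal cells and was held by few hematopoietic cells. It had 2 UMIs in all reticular-like cells, and 391 UMIs in myeloid-like cells, a ratio of 620 in CPM (exact 95% interval 171 to 5140, counting error only). Lymphoid-like cells had 121 UMIs, a ratio of 678 (184 to 5660). In myeloid-like cells the level was 15.2 CPM in Mouse #1 and 41.2 CPM in Mouse #2, so the mice differed widely. The signal came from few cells: 6 myeloid-like cells of Mouse #1 and 13 of Mouse #2 held at least 5 Cox6a2 UMIs each and together 97.6% and 95.1% of all Cox6a2 UMIs of the class. Of these cells 6 of 6 and 12 of 13 also held UMIs of Siglech, a gene known from plasmacytoid dendritic cells that was looked up after the Cox6a2 values were seen. Among the myeloid-like cells without Cox6a2, 3 of 366 and 1 of 317 held Siglech. In lymphoid-like cells 3 cells of Mouse #2 held 77.1% of the UMIs, 2 of them with Siglech. The 23 Cox6a2-positive lymphoid-like cells of Mouse #1 held 38 UMIs, at most 8 in 1 cell, and none of them held Siglech.

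Ndufa4l2 in periosteal-like cells was more widely spread, with a UMI in 23 of 74 cells of Mouse #1 and 47 of 236 cells of Mouse #2. The highest cell held 8 UMIs in Mouse #1 and 7 in Mouse #2, and of the 23 and 47 cells none and 1 held Rgs5, a pericyte gene. An unnamed cluster led by Acta2 and cell cycle genes showed the opposite: its 66 cells of Mouse #1 held 83 Ndufa4l2 UMIs, of which 80 lay in 1 cell that also held Rgs5. In the 80 cells of Mouse #2 this cluster had 9 Ndufa4l2 UMIs. The same cluster held 78 Cox4i2 UMIs in 23 of 66 cells of Mouse #1, 39 of them in 1 cell. In Mouse #2 it held 31 Cox4i2 UMIs in 24 of 80 cells, at most 3 in 1 cell. All genes together had 1610149 and 1767018 UMIs in this cluster.

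**Figure D3:**
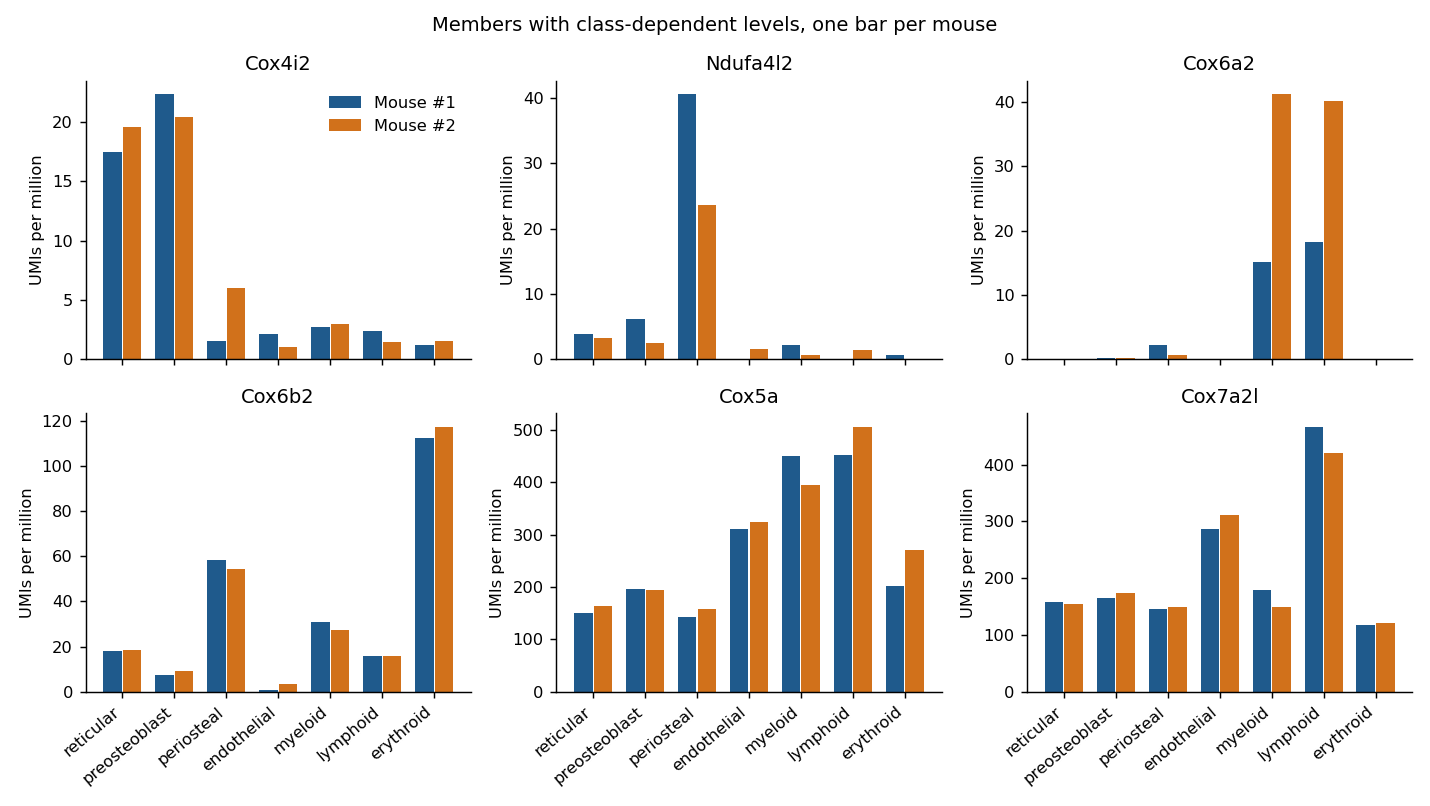
Levels of 6 members in CPM by cell class, with 1 bar per mouse and axes starting at 0. Cox4i2 is highest in reticular and preosteoblast classes, Ndufa4l2 in the periosteal class (40.6 and 23.6), Cox6b2 in the erythroid class (113 and 118), and Cox6a2 in myeloid and lymphoid classes with a wide gap between mice.

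Complex II, whose 4 subunits are all nuclear, did not move as a unit. Sdhd, a membrane anchor, was called higher in all 3 hematopoietic classes (1.24, 1.02 and 1.44), at 111 and 93.7 CPM in myeloid-like cells against 55.5 and 56.7 CPM in reticular-like cells. Sdhb, the iron-sulfur subunit, was called higher in all 3 as well (0.53, 0.84 and 0.56), but in erythroid-like cells its share of all UMIs was not higher, at 66.2 and 83.7 CPM against 79.0 and 86.6 CPM. In myeloid-like cells it stood at 100.4 and 85.2 CPM, higher in Mouse #1 only. Sdha, the flavoprotein, and Sdhc, the other anchor, were called only in erythroid-like cells (0.75 and 0.57), again without a higher share of all UMIs for Sdhc, at 47.2 and 57.5 CPM against 55.5 and 60.0 CPM. In myeloid-like cells Sdha had a log2 fold change of 0.31 (edgeR adjusted p 0.075) and Sdhc one of 0.03 (edgeR adjusted p 0.88). None of the 4 subunits was called in preosteoblast-like, periosteal-like or endothelial-like cells. Sdhb came nearest in preosteoblast-like cells (0.36, SE 0.14, edgeR adjusted p 0.084).

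The 3 genes of the c subunit of ATP synthase, whose mature proteins are identical, were used in different proportions. In reticular-like cells Atp5g1 made up 28.2% and 29.8% of their UMIs. It made up 45.2% and 43.9% in erythroid-like cells, whereas Atp5g2 made up 50.1% and 47.0% in lymphoid-like and 46.6% and 49.0% in endothelial-like cells, against 37.9% and 36.4% in reticular-like cells. Atp5g1 stood at 378 and 448 CPM in erythroid-like cells against 199 and 213 CPM in reticular-like cells. Atp5g2 stood at 602 and 698 CPM in lymphoid-like cells against 267 and 260 CPM. Among the other isoforms, Cox6a1 (0.60, 0.48 and 1.53), Cox7a2 (1.01, 0.89 and 1.36) and Cox8a (0.75, 0.57 and 0.94) were called higher in myeloid-like, lymphoid-like and erythroid-like cells. Cox8a was lower in endothelial-like cells (-0.37, SE 0.13, edgeR adjusted p 0.033). Cox7a2l did not follow this pattern. It was highest in lymphoid-like cells, at 467 and 420 CPM (1.39, SE 0.14, edgeR adjusted p 1.7e-06), and in erythroid-like cells it stood at 118 and 121 CPM, below reticular-like cells, although its TMM-scaled log2 fold change there was 0.33. Ndufa4 was called higher in erythroid-like (0.80) and myeloid-like cells (0.42), although in the latter it stood at 558 and 477 CPM against 494 and 508 CPM and was higher in Mouse #1 only.

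The mt- genes did not change evenly either. mt-Cytb was lower in myeloid-like, lymphoid-like (-0.64) and erythroid-like cells (-0.73), and in endothelial-like cells (-0.48, edgeR adjusted p 0.023), where no mt- gene was called with DESeq2 size factors or library totals, whereas mt-Co1, the catalytic subunit of complex IV, was called in none of the 6 classes, with log2 fold changes between 0.02 and 0.41. Accordingly, mt-Co1 made up 13% and 11.2% of mt- UMIs in reticular-like cells and 19.4% and 18.0% in myeloid-like cells, while mt-Cytb went from 16.1% and 16.1% to 10.8% and 12%. mt-Nd2, mt-Nd3, mt-Nd4 and mt-Nd4l, which encode parts of complex I, were lower in all 3 hematopoietic classes, with mt-Nd4l in erythroid-like cells the lowest (-1.16, SE 0.19, edgeR adjusted p 0.00013). mt-Atp6, mt-Co3, mt-Nd1 and mt-Nd6 were lower in myeloid-like cells alone among the 6 classes by this test, and mt-Atp8 (-0.86) and mt-Nd5 (-0.71) in erythroid-like cells alone. mt-Co2 was called in no class. These patterns hold with TMM: with library totals all 13 mt- genes were lower in erythroid-like cells and 11 in myeloid-like cells. Differences between these classes were not tested.

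The other genes of the pathway were described from lists, set against the medians of all genes given above and against the shares of all genes called, which were 32.7%, 29.9% and 29.5% higher in myeloid-like, lymphoid-like and erythroid-like cells. All list counts carry TMM scaling. The counts of members in myeloid-like and erythroid-like cells depended on that scaling, and the lists were not counted without it. Of 77 mitochondrial ribosomal proteins 44 were higher and 4 lower in myeloid-like cells, 60 and 1 in lymphoid-like cells and 64 and 1 in erythroid-like cells, with median log2 fold changes of 0.46, 0.67 and 0.96. In endothelial-like cells 1 was higher and 19 lower, and in periosteal-like cells none was higher and 8 were lower (medians -0.29 and -0.17). The lower counts lay near the background, where 23.0% and 9.62% of all genes were lower. The higher counts lay below it, where 20.5% and 9.02% of all genes were higher. All 9 outer membrane genes were higher in each hematopoietic class (medians 0.75, 0.60 and 1.20), as were both cytochromes, Cycs with 1.72, 1.20 and 1.80 and Cyc1 with 0.74, 0.92 and 1.79. Tricarboxylic acid cycle enzymes were higher in 8, 6 and 12 of 16 in myeloid-like, lymphoid-like and erythroid-like cells, and 1 was lower in each (medians 0.34, 0.27 and 0.89). Of 39 assembly factors 11, 14 and 16 were higher and 3, 4 and 4 lower (medians 0.25, 0.44 and 0.27), and the first of these counts was near the share of all genes. Of 10 genes for mitochondrial genome maintenance and expression 3, 4 and 5 were higher and none was lower (medians 0.03, 0.72 and 0.36), again near that share in myeloid-like cells. Among 8 biogenesis regulators 1, 2 and 3 were higher and 1, 1 and 2 lower (medians 0.18, 0.19 and 0.39). The first of these higher counts was below the share of all genes, and the others were near it. Ppargc1b, a coactivator of such genes, was higher in myeloid-like cells (2.36) and Nrf1 in lymphoid-like cells (0.84), and Myc was lower in all 6 classes. Atpif1, the inhibitor of ATP synthase, stood at 1829 and 1701 CPM in erythroid-like cells against 252 and 298 CPM in reticular-like cells (3.40, SE 0.20, edgeR adjusted p 1.4e-08).

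The level of the members over the 14 class sums ran with that of cytosolic ribosomal proteins. Pearson's r of the log2 shares was 0.95 with the ribosomal sum and -0.31 with the mt- sum, as a description over 14 sums that come from 2 mice and the same libraries. The 5 non-member genes most like the member sum among 8836 were Rpl27 (0.98), Usmg5 (0.98), Rpl11 (0.98), Rpl19 (0.97) and Rps10 (0.97). Usmg5, a small subunit of ATP synthase that the rule on symbols missed, thus ranked with ribosomal proteins. Of 80 members with a mean of at least 10 CPM, 30 had an r over 0.8 with the member sum, and the lowest were Ndufv1 (-0.16), Ndufb2 (-0.06) and Ndufa13 (-0.02), all of complex I.

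Within classes, cells with a larger mt- share had a smaller member share in stromal, endothelial-like and lymphoid-like cells and a larger one in myeloid-like and erythroid-like cells. Reticular-like cells were divided by their mt- share into 4 groups of equal size, and from the lowest to the highest group members took 1.74%, 1.73%, 1.66% and 1.43% of UMIs in Mouse #1. In Mouse #2 they took 1.81%, 1.86%, 1.72% and 1.44%. Preosteoblast-like cells showed a steeper course, from 2.18% to 1.37% in Mouse #1 and from 2.20% to 1.35% in Mouse #2. Without mt- UMIs in the total, the member share of reticular-like cells still went from 1.77% to 1.53% in Mouse #1 and from 1.85% to 1.55% in Mouse #2. Median UMIs per cell moved along, from 12266 to 9411 and from 11953 to 9066 between the lowest and the highest group, and so did the ribosomal share, from 9.60% to 8.21% and from 9.47% to 7.91%. Their part in the course was not tested. Across single cells Spearman's rho between the 2 shares was -0.26 and -0.32 in reticular-like cells (1241 and 2415 cells) and -0.49 and -0.50 in preosteoblast-like cells. Lymphoid-like cells had -0.45 and -0.39, periosteal-like cells -0.34 and -0.37 and endothelial-like cells -0.13 and -0.35. It was 0.68 and 0.55 in myeloid-like cells, a class of 3 clusters, and 0.54 and 0.44 in erythroid-like cells. Shares of 1 cell have a common total, and these coefficients are descriptions.

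**Figure D4:**
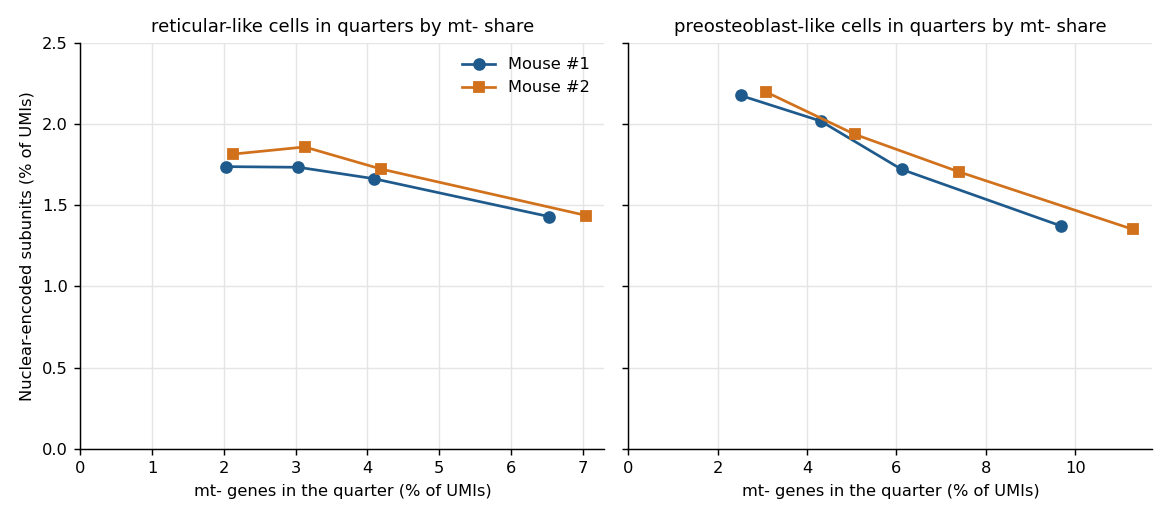
Member share of UMIs (percent, vertical axis) against mt- share of UMIs (percent, horizontal axis) in 4 equal groups of reticular-like (left) and preosteoblast-like cells (right) ordered by mt- share, with 1 line per mouse. In both classes and mice the highest group has the lowest member share, at 1.43% and 1.44% on the left and 1.37% and 1.35% on the right.

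Reticular-like cells with the tdTomato reporter were last compared with those without it. Cells were called positive above a level of tdTomato UMIs per 10000 set at the 99th percentile of the hematopoietic classes. That level was 8.63 for Mouse #1 and 14.6 for Mouse #2. This gave 499 and 978 positive and 742 and 1437 negative cells, with similar depth (12382 and 11692.5 median UMIs against 12445.5 and 11527). No member was called by edgeR, 0 of 85, and no gene was called among 12183, a share of 0%, with 445 genes at an unadjusted p under 0.05. DESeq2 called 4 genes and no member. With mouse as a block, which pairs positive and negative cells of the same animal, 2 members rose, where 5.41% of all genes were called, 2.64% higher and 2.77% lower. These were Uqcrc2, a core protein of complex III (0.28, SE 0.062, edgeR adjusted p 0.00047), and Ndufab1, the mitochondrial acyl carrier protein (0.18, SE 0.059, edgeR adjusted p 0.04). Uqcrc2 stood at 82.9 and 79.9 CPM in positive cells and at 70.4 and 67.0 CPM in negative cells, without overlap.

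The direction of the single values is given next, for which no count over all genes was made. Of 85 members 53 had a higher share of UMIs in positive cells in both mice and 6 a lower one. The mice differed, with 56 of 85 members higher in Mouse #1 and 76 in Mouse #2. All 13 mt- genes had a lower share in both mice. The median log2 fold change was 0.09 for members, -0.11 for mt- genes and -0.01 for all genes. With the block 6 of 13 mt- genes fell, by 0.10 to 0.12, and these were mt-Atp6, mt-Co2, mt-Co3, mt-Cytb, mt-Nd2 and mt-Nd4 (edgeR adjusted p between 0.0013 and 0.029). mt-Cytb, for example, stood at 5672 and 6015 CPM in positive cells and at 6349 and 6515 CPM in negative cells.

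**Figure D5:**
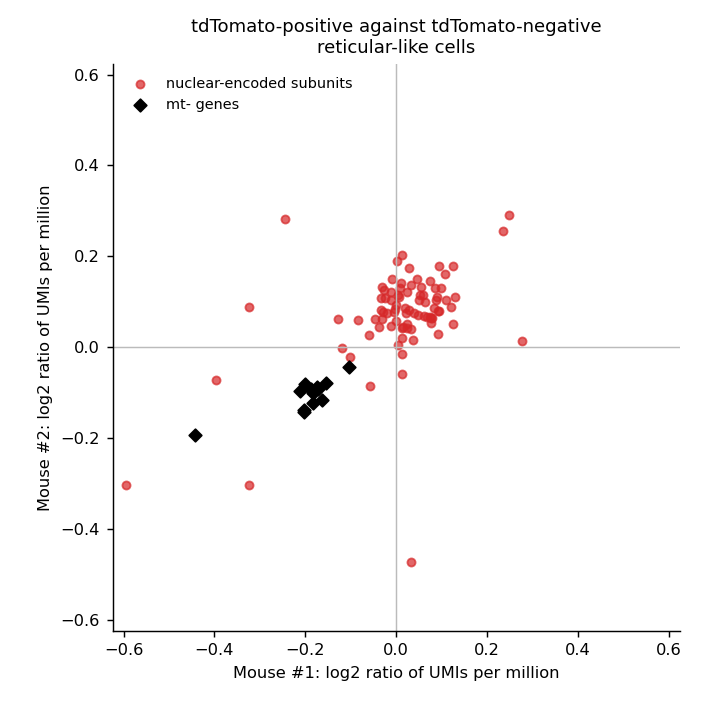
Log2 ratio of CPM between tdTomato-positive and tdTomato-negative reticular-like cells in Mouse #1 (horizontal axis) and Mouse #2 (vertical axis), with 1 circle for each of 85 members and 1 diamond for each of 13 mt- genes. All 13 diamonds lie in the lower left quadrant, and 53 circles in the upper right.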

How the data were processed

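The authors deposited raw UMI counts per feature and barcode, made with Cell Ranger 3.0.0 per the file headers. The study's methods name mm10 with reporter sequences added, and the annotation release is not given in the sources used here. Chemistry was 10x 3′ v3, so counts do not scale with transcript length. Shares among paralogs, among complexes and against mt- genes are shares of UMIs to be compared between classes, not levels of one gene against another. Counting could have split reads between members and near-identical copies.

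Cells passed the limits given above. From 2000 variable genes, without members, mt- genes, the other lists and reporters, 30 components, 15 neighbors and Leiden resolution 0.5 (scanpy 1.11.5, leidenalg 0.10.2) gave clusters, named "-like" from at least 3 raised markers (1.5 times the other clusters, in 10% of cells). Names were rebuilt here. Doublets stayed in: Scrublet marked 6 and 3 cells (0.218% and 0.0655%), so it had not worked. Counts were summed per mouse and class and fitted over 14 sums with edgeR 4.0.16 (quasi-likelihood, TMM, filterByExpr) in R 4.3.3 without a block, with Benjamini-Hochberg adjustment over all tested genes. Cells with tdTomato were fitted on 4 sums. The pairing by mouse comes from the animals, and deviations of the same mouse correlated at 0.116 to 0.282 across genes for the classes and at 0.509 for tdTomato. On simulated counts, 78% of 100 genes changed by a log2 of 0.5 and 100% of those changed by 1 were recovered for preosteoblast-like against reticular-like cells over 13320 genes, and 63% and 99% for tdTomato over 12183 genes. Named members were the 5 highest and 5 lowest called per comparison, the paralogous forms, the Sdh subunits and the mt- genes. Members, lists, motifs and tests were chosen with earlier results of these data known.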

Additional observations from a re-analysis of the deposited data

How the results depend on the processing

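Library totals without TMM and the fit without the neutrophil gene cluster were chosen after seeing the data. Over the alternatives, 155 values of sums and counts stayed the same by a set rule. A sum had to move by less than the spread between mice, and a count had to stay within 1.5 times. A further 21 sums moved by more but kept their sign, and 6 counts were larger and 4 smaller beyond that limit. The 38 calls among the highest and lowest members of each comparison kept their direction. They held in 530 fits and were lost in 46, and all 38 held with the replicate block, which pairs the mice. Over all members, the block moved the number called by over 1.5 times only for tdTomato. Some small counts moved by 1 gene, such as biogenesis regulators higher in myeloid-like cells and complex I members lower in lymphoid-like cells, each from 1 to 2. Members called in preosteoblast-like cells were 4 with DESeq2 size factors, 11 with DESeq2, 5 with only the 2 classes fitted and 2 at Leiden resolution 1.0. Periosteal-like cells gave 11 with DESeq2, myeloid-like cells 35 with library totals, and tdTomato 2 with the replicate block. Leaving out 1 library gave 15 to 20 members called in endothelial-like cells, 47 to 64 in myeloid-like, 42 to 57 in lymphoid-like and 66 to 71 in erythroid-like cells, with the lone sum assumed to vary like the others.

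The log2 member sum against reticular-like cells depended on which cells were kept. With limits of 500 genes and 20% mt- UMIs it was 0.077 in preosteoblast-like, 0.0041 in endothelial-like, 0.60 in lymphoid-like and 0.014 in erythroid-like cells. The erythroid-like and reticular-like shares were thus nearly equal there. At the main limits they were 1.91% and 2.10% against 1.65% and 1.73%. With limits of 2000 genes and 10% the log2 member sum was 0.040 in endothelial-like, 0.70 in lymphoid-like and 0.45 in erythroid-like cells. Leiden resolution 1.0 gave 0.077 in preosteoblast-like and 0.027 in endothelial-like cells, and leaving out the highest Scrublet scores gave 0.034 in endothelial-like and 0.64 in lymphoid-like cells. Without hemoglobin and mt- UMIs it was 0.026 in endothelial-like and 0.81 in erythroid-like cells, and without the neutrophil gene cluster 0.49 in myeloid-like cells. The log2 member to mt- ratio was 0.072, 0.16, 0.11 and 0.15 in endothelial-like cells with the 500 gene limit, the 2000 gene limit, Leiden resolution 1.0 and the Scrublet scores left out. In lymphoid-like cells it was 0.74, 1.05 and 0.85 with the 500 gene limit, the 2000 gene limit and the Scrublet scores left out. The cause of these shifts was not tested. Depth limited members at a few UMIs per sum.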

Other observations

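Clusters without a class name held member values outside the classes above. The shallow unnamed cluster, with median UMIs of 3189 and 3038 per cell and led by Gm26917, had members at 0.439% and 0.432% of UMIs, below the neutrophil gene cluster. The unnamed cluster led by Acta2 had 2.20% and 2.04%, and the one led by Bglap, the osteocalcin gene, had 1.62% and 1.79%. The 3 reticular-like clusters lay at 1.63% and 1.71%, 1.76% and 1.88%, and 1.55% and 1.63%, the last of them led by stress genes such as Hspa1a and Jun.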
